A study of Homo sapiens with 15 samples.

Results

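Cells given an activating PI3K mutant were compared directly with cells given insulin, by bulk RNA-seq. The cells were 12Z, an established immortalised line of human endometriotic epithelial cells. PI3K activity itself was not measured in these libraries. The comparison took 6 of the 15 samples of the series: 3 libraries of siRSAD2 cells given PIK3CA H1047R and vehicle, called H1047R libraries here, and 3 libraries of siRSAD2 cells given an empty vector and insulin, called insulin libraries. The libraries were taken by their treatment labels, and the comparison was chosen with earlier results of these data known. All 6 cultures received a pool of siRNAs against RSAD2 (siRSAD2), so neither side represents cells with undisturbed RSAD2. A pBabe plasmid followed 24 hours after the siRNA. Serum was withdrawn the next day for 4 hours, and 100 nM insulin or vehicle was then given for 24 hours. RNA was taken 72 hours after the first transfection, so the plasmid was present for longer than insulin. The plasmid was introduced by transient transfection of the whole culture, so each library averages cells that took it up and cells that did not. In such bulk samples, fewer cells of a type and less RNA per cell cannot be told apart. A further 3 libraries of siRSAD2 cells with empty vector and vehicle, called control libraries, give the level without either stimulus and are shared by both sides. The fit also took in 3 libraries with a non-targeting siRNA, empty vector and vehicle, and 3 of siRSAD2 cells with H1047R and insulin.

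PIK3CA encodes the catalytic p110-alpha subunit of class I PI3K, and H1047R lies in its kinase domain and activates the enzyme without ligand. Insulin reaches the same enzyme through its receptor and the IRS adaptors, and it also engages the RAS and MAPK branch. Downstream of PI3K, AKT phosphorylates the FOXO factors and keeps them out of the nucleus. FOXO factors drive genes such as IRS2 and INSR, so an active pathway usually lowers the transcripts of its own upstream components.

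Gene counts ranged from 16.1 to 24.3 M in the insulin libraries and from 19.5 to 39.7 M in the H1047R libraries. Of the reads, a share of 6.19 to 6.24% fell on the forward strand in the H1047R libraries, against 5.89, 5.77 and 6.17% in insulin replicates 1, 2 and 3 and 5.81 to 5.88% in the control libraries. Insulin replicate 3 therefore sat with the H1047R libraries on this technical measure, and the direct comparison was also computed without it and with it as the sole insulin library. Insulin replicate 2 stood apart from the others on the first principal component of the 6 libraries, at -24.8 against -9.0 and -1.60 for insulin replicates 1 and 3 and 11.2 to 12.4 for the H1047R libraries. The methods describe 3 independent experiments. The epithelial label was checked against 21 epithelial markers, whose summed level was 2034 to 2362 CPM (counts scaled to library size) across the 6 libraries. The keratin KRT8 stood at 939.6, 821 and 877 CPM with insulin and 857, 897 and 839 CPM with H1047R, whereas 8 of the 21 markers, among them the epithelial adhesion molecules CDH1 and EPCAM, stayed below 1 CPM in all 6 and GRHL2 had no count. The mesenchymal filament gene VIM and the other stromal markers summed to 2781 to 3439 CPM. The 13 endothelial markers summed to at most 35.4 CPM and the 13 immune markers to at most 5.82 CPM.

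PIK3CA (ENSG00000121879.5, hg38 chromosome 3, 179148114 to 179240093, plus strand) separated the groups in every library. It stood at 212, 199 and 223 CPM in the H1047R libraries, at 79.7, 81.4 and 76.5 CPM in the insulin libraries and at 92.1, 84.5 and 90.5 CPM in the control libraries. The H1047R and insulin groups did not overlap, and the difference was 2.66-fold, a log2 fold change of 1.41 ± 0.053 (SE, adjusted p = 6.11e-18). Counts do not separate transcripts of the plasmid from those of the cell's own gene. RSAD2, the interferon-induced gene that encodes viperin and the target of the siRNA, gave 3 to 11 counts per insulin library and 13 to 56 per H1047R library, against 84 to 88 in cells with a non-targeting siRNA. Its level was 0.447, 0.129 and 0.417 CPM with insulin and 0.624, 1.41 and 0.659 CPM with H1047R, and the log2 fold change of 1.52 ± 0.48 (SE, adjusted p = 0.063) did not pass the threshold in edgeR. It passed with DESeq2 (adjusted p = 0.037), with no filter on low counts (adjusted p = 0.0085) and without control replicate 3 (adjusted p = 0.040), and leaving out 1 library at a time moved the log2 value between 0.96 (H1047R replicate 2) and 1.88 (insulin replicate 1).

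Between the H1047R and insulin libraries, 1245 of 23184 genes tested passed an adjusted p under 0.05 in edgeR, which is 5.37% of them. With H1047R, 810 genes (3.49%) were higher than with insulin and 435 (1.88%) were lower. Most differences were small: 145 of the higher and 50 of the lower genes differed by at least 1.5-fold, and 47 and 19 by at least 2-fold. The 3 values of each group did not overlap for 790 of the higher and 413 of the lower genes, where 19.5% of all genes tested had such groups, 11.1% with H1047R above and 8.42% with H1047R below. Protein-coding genes made up 768 of the higher and 404 of the lower set. Of the 13553 genes with a mean of at least 1 CPM, 797 were higher and 428 lower. Across all genes tested, the median log2 fold change was 0.0075. Without insulin replicate 3 the test called 906 higher and 669 lower genes, and 691 of the 810 and 387 of the 435 were called again. Without insulin replicate 2, which stood apart on the first principal component, it called 603 higher and 246 lower genes. Of the 810 and the 435, 539 and 197 were then called again. These fits share their other libraries with the main fit that chose the genes, so a kept direction is no independent check. With insulin replicate 3 as the only insulin library, 442 were higher and 104 lower, and 379 of the higher and 61 of the lower genes were called again. That single library gives no spread of its own and is assumed to vary like the libraries of the other groups. Adding the forward-strand share to the fit as a term left 333 higher and 59 lower genes, among them 317 of the 810 and 56 of the 435. All 3 H1047R libraries had the higher share, so its part in the calls cannot be told apart from that of H1047R.

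**Figure D1:**
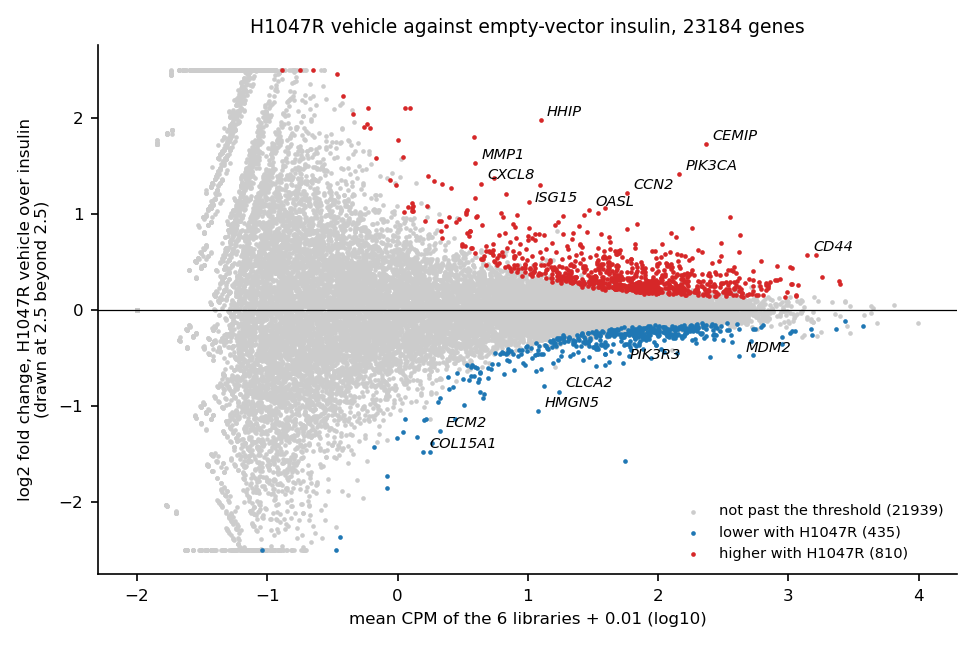
Mean level of each of 23184 genes over the 6 libraries (CPM, log10 axis) against the log2 fold change of H1047R vehicle over empty-vector insulin, with values beyond 2.5 drawn at 2.5. Red points are the 810 genes higher with H1047R, blue points the 435 lower, and PIK3CA, CEMIP and HHIP stand far above genes of like level.

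Each side was also set against the control libraries, which both comparisons share. H1047R alone changed 316 genes (1.36%), 144 higher (0.621%) and 172 lower (0.742%). Insulin alone changed 1457 genes (6.28%), 486 higher (2.1%) and 971 lower (4.19%). With the forward-strand share as a term the count was 4 for H1047R, all of them higher, and 1616 for insulin. Of the differences between H1047R and control given below, at most 4 therefore passed in that fit. Where levels in the control libraries are given below, they show which side lay away from the unstimulated level. Genes given only as a direct difference do not show this.

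Among the 12 largest rises with H1047R over insulin, HHIP and CEMIP had the largest fold changes. CEMIP (ENSG00000103888.17, chromosome 15, 80779343 to 80951776, plus strand), which encodes a hyaluronan-degrading protein, stood at 365, 346 and 371 CPM in the H1047R libraries and 115, 108 and 104 CPM in the insulin libraries, while the control libraries held 373, 371 and 383 CPM. The insulin group lay below both others in every library, so the 3.30-fold difference (log2 1.72 ± 0.060 SE, adjusted p = 1.68e-18) went with a fall of insulin against control of 1.78 ± 0.060 (SE) on the log2 scale and a change of -0.059 ± 0.057 with H1047R. HHIP (ENSG00000164161.10, chromosome 4, 144646156 to 144745271, plus strand), a membrane protein that binds hedgehog ligands and restrains their signalling, stood at 20.6, 19.1 and 20.3 CPM with H1047R, 4.11, 7.26 and 3.69 CPM with insulin and 24.5, 22 and 20.1 CPM in control cells. Here too the insulin libraries were apart from the other 6, with a log2 fold change of 1.97 ± 0.15 (SE, adjusted p = 2.76e-10). The remaining large rises were the collagenase MMP1 (log2 1.53), LYPD6B (1.37), the chemokine CXCL8 (1.31), CCN2 (1.22), ANKRD1 (1.21), DDIT4L (1.11), GALNT14 (1.08), TMEM121 (1.06) and TMEM158 (1.06), besides PIK3CA itself. Of these, GALNT14 and TMEM121 no longer passed without insulin replicate 3 (adjusted p = 0.076 and 0.13). Without insulin replicate 2, DDIT4L, GALNT14 and TMEM121 did not pass (adjusted p = 0.13, 0.15 and 0.13). Nor did they pass in edgeR with the forward-strand share as a term (adjusted p = 0.38, 0.17 and 0.47).

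Of the 12 largest falls, HMGN5 and CLCA2 were the ones with a mean above 10 CPM with insulin. COL15A1, which encodes a basement membrane collagen, stood at 0.624, 0.960 and 0.862 CPM with H1047R and 2.20, 3.01 and 1.67 CPM with insulin (log2 -1.48 ± 0.27 SE, adjusted p = 6.57e-04). CLCA2, a transmembrane regulator of chloride conductance, was better measured, at 13.4, 12.8 and 10.8 CPM with H1047R against 19.5, 24.2 and 23.5 CPM with insulin and 12, 12.9 and 11.7 CPM in control cells. Its insulin libraries were the high ones, with a log2 fold change of -0.85 ± 0.10 (SE, adjusted p = 1.03e-06). HMGN5, which encodes a nucleosome-binding protein, had another order of groups, since its level with H1047R (7.24, 7.73 and 8.57 CPM) lay below the control libraries (13.4, 13 and 11.4 CPM) and insulin replicate 2 stood far above the other insulin libraries (11.9, 24.1 and 12.3 CPM). Its log2 fold change was -1.05 ± 0.18 (SE, adjusted p = 1.69e-04) and -0.63 without insulin replicate 2. The other 9 were ALDH1A1 (log2 -1.32), ECM2 (-1.27), NEFL (-1.14), SLC16A14 (-1.14), PCDHB10 (-1.14), ZNF540 (-0.96), ZNF608 (-0.92), CDH12 (-0.82) and EPGN (-0.80). Without insulin replicate 3, SLC16A14 no longer passed (adjusted p = 0.2). Without insulin replicate 2, ALDH1A1, SLC16A14, CDH12, NEFL, PCDHB10 and ZNF540 did not pass, with adjusted p from 0.061 for SLC16A14 to 0.21 for ZNF540. With the forward-strand share as a term, only CLCA2 and ECM2 of the 12 passed in edgeR (adjusted p = 4.3e-04 and 0.036). COL15A1, HMGN5, ZNF608 and EPGN were among those that did not (adjusted p = 0.090, 0.12, 0.41 and 0.21).

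**Figure D2:**
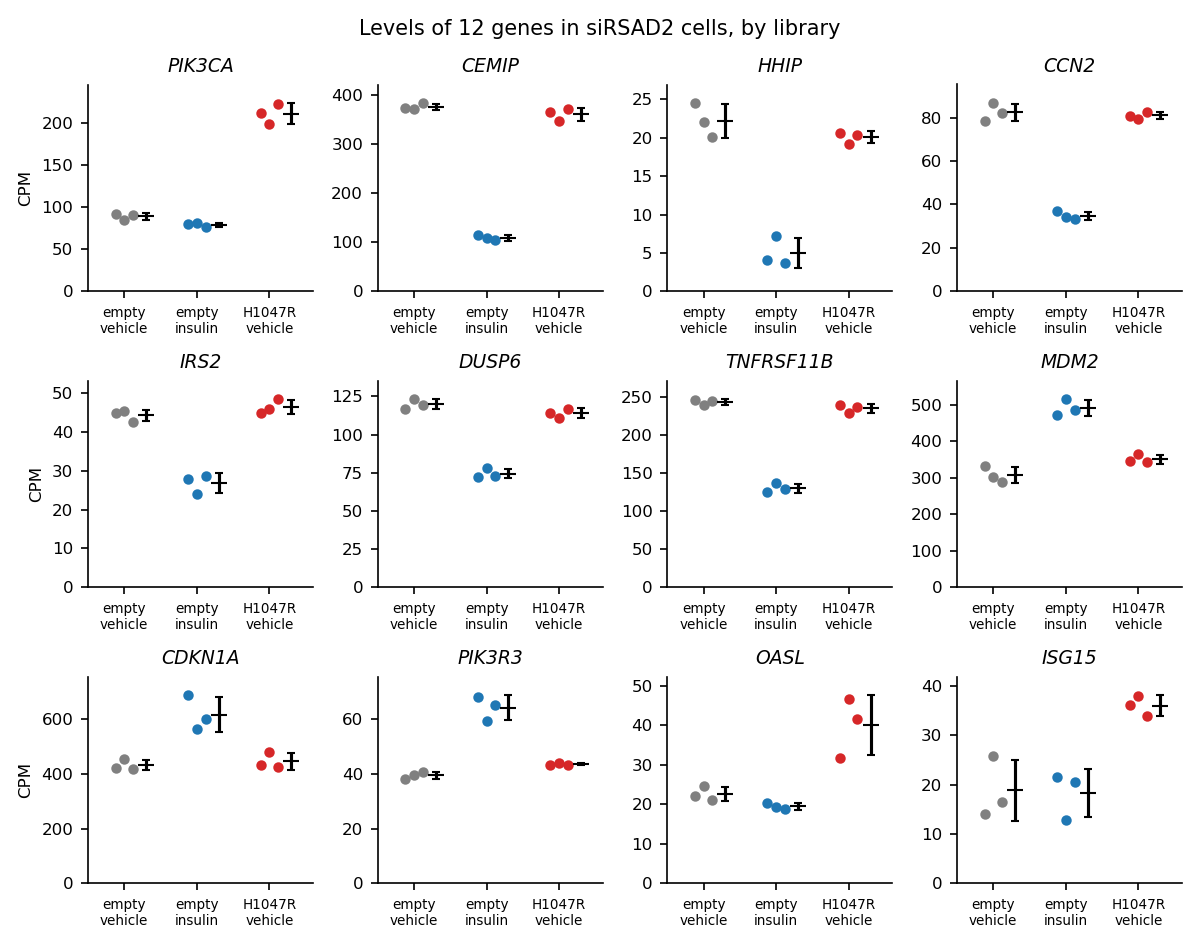
Level in CPM (linear axis from 0) of 12 genes in each library of siRSAD2 cells with empty vector and vehicle (grey), empty vector and insulin (blue) and H1047R and vehicle (red), with the mean and SD of 3 libraries as black marks. In CEMIP, HHIP, CCN2, IRS2, DUSP6 and TNFRSF11B the insulin libraries are the low ones, in MDM2, CDKN1A and PIK3R3 the high ones, and in PIK3CA, OASL and ISG15 the H1047R libraries stand above both others.

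The gene lists below are read against the share called over all genes, 5.37%, and against 9.04% over the 13553 genes with a mean of at least 1 CPM. The share of tested members called was 53.7% for MAPK genes, 42.1% for insulin and IGF components, 41.9% for FOXO genes, 38.7% for p53 targets, 38.7% for the YAP and TEAD list, 37.6% for matrix genes and 35.5% for inflammatory genes. It was 35% for glycolysis and hypoxia, 34.9% for the ATF4 response, 30.6% for PI3K components, 29.3% for ribosomal proteins and 28.6% for the interferon response. Lower shares were found for the MYC network (19%), sterol synthesis (13.5%), mitosis (13.2%) and MHC class I presentation (10.5%). The unfolded protein response (5.88%), ribosome biogenesis (5.26%), replication histones (5.26%), the respiratory chain (6.52%), mitochondrially encoded genes (6.67%) and replication (7.89%) were near the share over all genes.

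Upstream components of the pathway were examined first. Of 19 tested genes for receptors, adaptors and binding proteins of insulin and IGF, 8 were higher with H1047R than with insulin and none was lower, with a median log2 fold change of 0.16 against 0.0075 for all genes. The counts were again 8 and 0 without insulin replicate 3. INSR, the insulin receptor, stood at 38.2, 34.8 and 34.5 CPM with H1047R, 24.2, 24.9 and 24.6 CPM with insulin and 32.3, 37.8 and 36.9 CPM in control cells. Its 3 insulin libraries were nearly equal to each other and below the other 6, a difference of 0.55 ± 0.070 (SE, adjusted p = 3.13e-06) in log2. IRS2, an adaptor that carries the signal from the receptor to PI3K, stood at 44.9, 45.8 and 48.4 CPM with H1047R and 27.9, 24 and 28.7 CPM with insulin, and the control libraries held 44.9, 45.3 and 42.5 CPM. The groups did not overlap (log2 0.79 ± 0.069 SE, adjusted p = 1.96e-09), and the H1047R libraries differed from control by 0.067 ± 0.065. The IGF receptor IGF1R (0.41) and the adaptor IRS1 (0.33) were likewise higher with H1047R, as were the inhibitory adaptor GRB10 (0.25) and the binding proteins IGFBP4 (0.37), IGFBP6 (0.44) and IGFBP7 (0.55). For IGFBP6 and GRB10 it was the H1047R libraries that rose against control (log2 0.35 and 0.25). The ligands IGF1 and IGF2 and the binding protein IGFBP1 had too few counts to be tested.

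Of 36 PI3K, AKT and mTORC1 genes, 7 were higher and 4 were lower with H1047R, with a median of -0.0092. Among the 8 PI3K subunits the regulatory subunit PIK3R3 was lower, at 43.3, 44.1 and 43.3 CPM with H1047R against 68.2, 59.2 and 65 CPM with insulin and 38.1, 39.6 and 40.6 CPM in control cells. The insulin libraries were the high ones (log2 -0.56 ± 0.060 SE, adjusted p = 1.29e-07). The catalytic subunit PIK3CD was higher (0.36) and the other 5 subunits did not pass. The lipid phosphatase INPP4B (0.36) and the AKT phosphatase PHLPP1 (0.34) were higher. SGK1, a kinase related to AKT and activated through PI3K, was the kinase called, at 165, 159 and 173 CPM with H1047R and 111, 113 and 109 CPM with insulin (log2 0.58 ± 0.047 SE, adjusted p = 6.28e-10). Its control libraries, at 151, 161 and 158 CPM, lay with the H1047R group. AKT1, AKT2, PDPK1 and MTOR did not pass, with log2 values of -0.049 (AKT2) to 0.062 (AKT1). RICTOR (0.35) and the mTOR inhibitor DEPTOR (0.75) were higher, and the mTORC1 inhibitors DDIT4 (-0.32) and SESN1 (-0.41) lower.

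Among 31 genes written down as repressed by insulin through FOXO, 10 were higher and 3 lower with H1047R than with insulin, with a median of 0.16. The 10 include IRS2, INSR and also PIK3CA, whose plasmid and cellular reads are not separated. CITED2, a transcriptional co-regulator, stood at 149.8, 161 and 162 CPM with H1047R, 124, 119 and 125 CPM with insulin and 172, 179 and 167 CPM in control cells (log2 0.37 ± 0.047 SE, adjusted p = 3.22e-06). The cyclin CCNG2 (0.38), the repressor BCL6 (0.28), KLF6 (0.34), RICTOR, the death ligand TNFSF10 (0.54) and the ubiquitin ligase FBXO32 (0.29) completed the 10. PIK3R3, SESN1 and KLF9 (-0.37) were lower. Against control, insulin lowered 9 of the 31 and raised 5, whereas H1047R raised 2, PIK3CA and TXNIP (0.20), and lowered none. The factors FOXO1, FOXO3 and FOXO4 did not pass in the direct comparison, with log2 values of 0.35, -0.045 and 0.12.

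Genes downstream of growth factor signalling showed the largest share of calls among the lists, with 20 of 41 immediate early and MAPK feedback genes higher and 2 lower with H1047R (median 0.22). Of 12 genes listed under feedback, among them inhibitors that dampen ERK activity once it has been raised, 8 were higher and none lower. DUSP6, the phosphatase of ERK, stood at 114, 111 and 117 CPM with H1047R, 72.1, 77.8 and 73.2 CPM with insulin and 117, 123 and 119.6 CPM in control cells, a log2 difference of 0.61 ± 0.051 (SE, adjusted p = 8.71e-10). SPRY1, an inhibitor of receptor tyrosine kinase signalling, showed the same order, at 23.4, 24.2 and 23.1 CPM, 13.6, 12.8 and 14.8 CPM and 24, 25.4 and 24.8 CPM in that sequence (log2 0.79 ± 0.086 SE, adjusted p = 2.01e-07). The insulin libraries were the low group for both genes. DUSP4 (0.56), DUSP5 (0.39), SPRY2 (0.52), SPRY4 (0.47), SPRED2 (0.18) and PHLDA1 (0.60) were the other 6. The ERK-responsive factors ETV4 (0.64), ETV5 (0.25) and FOSL1 (0.40) and the receptor EGFR (0.33) were higher as well. EGR1, an immediate early zinc finger factor named here after its values were seen, went the other way: it stood at 33.3, 35.5 and 33.3 CPM with H1047R, 52.2, 47.4 and 49 CPM with insulin and a mean of 24.8 CPM in control cells. Both groups were above control (log2 0.46 ± 0.073 SE, adjusted p = 0.001 with H1047R and 1.00 ± 0.072 SE, adjusted p = 4.34e-11 with insulin), and the direct difference was -0.54 ± 0.071 (SE, adjusted p = 4.01e-06). KLF10 (-0.26) was the other lower member.

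Of 24 targets of YAP and TEAD, which respond to cell shape and matrix stiffness, 11 were higher and none lower, and of 7 factors of that pathway 1, WWTR1 (0.19), was higher (median of all 31 0.12). CCN2 (ENSG00000118523.6, chromosome 6, 131948176 to 131951372, minus strand), a matricellular protein, stood at 80.7, 79.4 and 82.8 CPM with H1047R, 36.8, 34 and 33.5 CPM with insulin and 78.5, 86.6 and 82.2 CPM in control cells. The highest insulin library, at 36.8 CPM, lay below the lowest of the other 6, at 78.5 CPM, and the difference was 2.32-fold (log2 1.22 ± 0.061 SE, adjusted p = 1.16e-14). ANKRD1, a nuclear ankyrin-repeat protein, stood at 10.4, 8.16 and 9.89 CPM with H1047R and 3.46, 4.21 and 4.64 CPM with insulin (log2 1.21 ± 0.15 SE, adjusted p = 2.17e-06). NT5E (0.63), CCN1 (0.56), the TGF-beta receptor TGFBR2 (0.49) and the receptor kinase AXL (0.39) were higher too. Of 9 called targets with a RefSeq promoter, CCN2 and ANKRD1 hold GGAATG, the TEAD core. The window ran from 250 bases before to 50 after the start, on either strand. GGAATG was found in 11.4% of the 13364 promoters of tested genes. The share was the same, 11.4%, in the 613 promoters of all genes called higher. The stretches that hold the matches are shown from GRCh38.p14, 5′ to 3′ on the strand of the gene, with the matches in capitals, because these 2 genes carry the largest differences of the list.
CCN2 (chr6:131951447-131951556, minus strand): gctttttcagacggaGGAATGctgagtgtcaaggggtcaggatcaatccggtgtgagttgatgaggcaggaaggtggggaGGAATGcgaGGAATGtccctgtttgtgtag
ANKRD1 (chr10:90921195-90921322, minus strand): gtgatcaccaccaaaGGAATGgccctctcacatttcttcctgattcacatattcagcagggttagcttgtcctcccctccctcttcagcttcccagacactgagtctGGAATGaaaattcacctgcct

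The matrix and adhesion list, the longest tested, held 28 higher and 4 lower genes of 85 (median 0.10). Proteases and their inhibitors made up 11 of the higher genes, out of 19 tested, and integrins 6 of 13. TFPI2, a serine protease inhibitor of the matrix, stood at 464, 444 and 498 CPM with H1047R, 221, 235 and 266 CPM with insulin and 536, 528 and 515 CPM in control cells (log2 0.96 ± 0.055 SE, adjusted p = 2.92e-13). The urokinase PLAU (0.64) and its receptor PLAUR (0.65) were both higher, as was the protease inhibitor SERPINE2 (0.57). CD44, the hyaluronan receptor, had a mean of 1662 CPM with H1047R and 1124 CPM with insulin (log2 0.56 ± 0.036 SE, adjusted p = 4.55e-12). The collagen-binding integrin ITGA2 stood at 171, 169.8 and 175 CPM with H1047R and 103, 108 and 93.7 CPM with insulin, with no overlap (log2 0.76 ± 0.053 SE, adjusted p = 1.97e-11). FN1 (0.30), THBS1 (0.43) and COL8A1 (0.71) were higher among the structural proteins. The 4 lower genes were POSTN (-0.49), TNC (-0.28), SPARC (-0.12) and ECM2. POSTN also fell with H1047R against control in edgeR (log2 -0.29 ± 0.055 SE, adjusted p = 0.0056). With the forward-strand share as a term, no gene passed as lower in that comparison, POSTN included.

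Of 31 cytokines and NF-kB genes, 10 were higher and 1, the chemokine CXCL12 (-0.37), was lower, with a median of 0.38. TNFRSF11B, the decoy receptor osteoprotegerin, stood at 239.6, 229 and 236 CPM with H1047R, 125, 137 and 128 CPM with insulin and 246, 239 and 244 CPM in control cells (log2 0.85 ± 0.048 SE, adjusted p = 2.29e-13). PTX3, a secreted pattern recognition protein, stood at 91.2, 80.3 and 94.7 CPM, 41.1, 51.8 and 50.8 CPM and 84.7, 85.4 and 87 CPM in the same sequence (log2 0.89 ± 0.071 SE, adjusted p = 3.61e-10). In both genes the insulin libraries were separate from the other 6. The neutrophil chemoattractant CXCL8, at a low level, stood at 6.45, 5.91 and 6.49 CPM with H1047R and 2.32, 2.88 and 2.32 CPM with insulin (log2 1.31 ± 0.16 SE, adjusted p = 9.73e-07). CXCL6 (0.70), IL11 (0.74), LIF (0.43) and the NF-kB genes TNFAIP3 (0.47), RELB (0.56) and NFKB2 (0.38) were also higher, as was complement C3 (0.44). In the glycolysis and hypoxia list, 14 of 40 were higher and none lower (median 0.13), among them LOX (0.41), STC1 (0.51), NDRG1 (0.39), the glycolytic activator PFKFB3 (0.39) and the lactate exporter SLC16A3 (0.32).

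These lists were also set against the control libraries, which the H1047R and insulin comparisons share. Over all genes tested, 6.28% passed against control with insulin and 1.36% with H1047R. Insulin gave 2 higher and 21 lower of 41 MAPK genes and 0 higher and 12 lower of 31 YAP and TEAD genes. Of 85 matrix genes it gave 4 higher and 30 lower. The H1047R counts were 2 higher and 1 lower, 0 higher and 0 lower, and 1 higher and 1 lower. Lists of this size hold few calls at a share of 1.36%, so these low counts are no result about the lists. Insulin lowered 11 of 31 inflammatory genes and raised 1, and lowered 9 of the 40 glycolysis and hypoxia genes. For H1047R no member of either list passed in edgeR, where few would at its share over all genes. Without insulin replicate 3 the direct comparison gave 9 higher and 3 lower FOXO genes, 19 higher and 2 lower MAPK genes, 11 higher and 0 lower YAP and TEAD genes and 26 higher and 3 lower matrix genes. The inflammatory list then had 9 higher and 1 lower and the glycolysis and hypoxia list 11 higher and 0 lower. With insulin replicate 3 as the sole insulin library the MAPK list had 12 higher and 1 lower and the matrix list 24 higher and 2 lower.

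**Figure D3:**
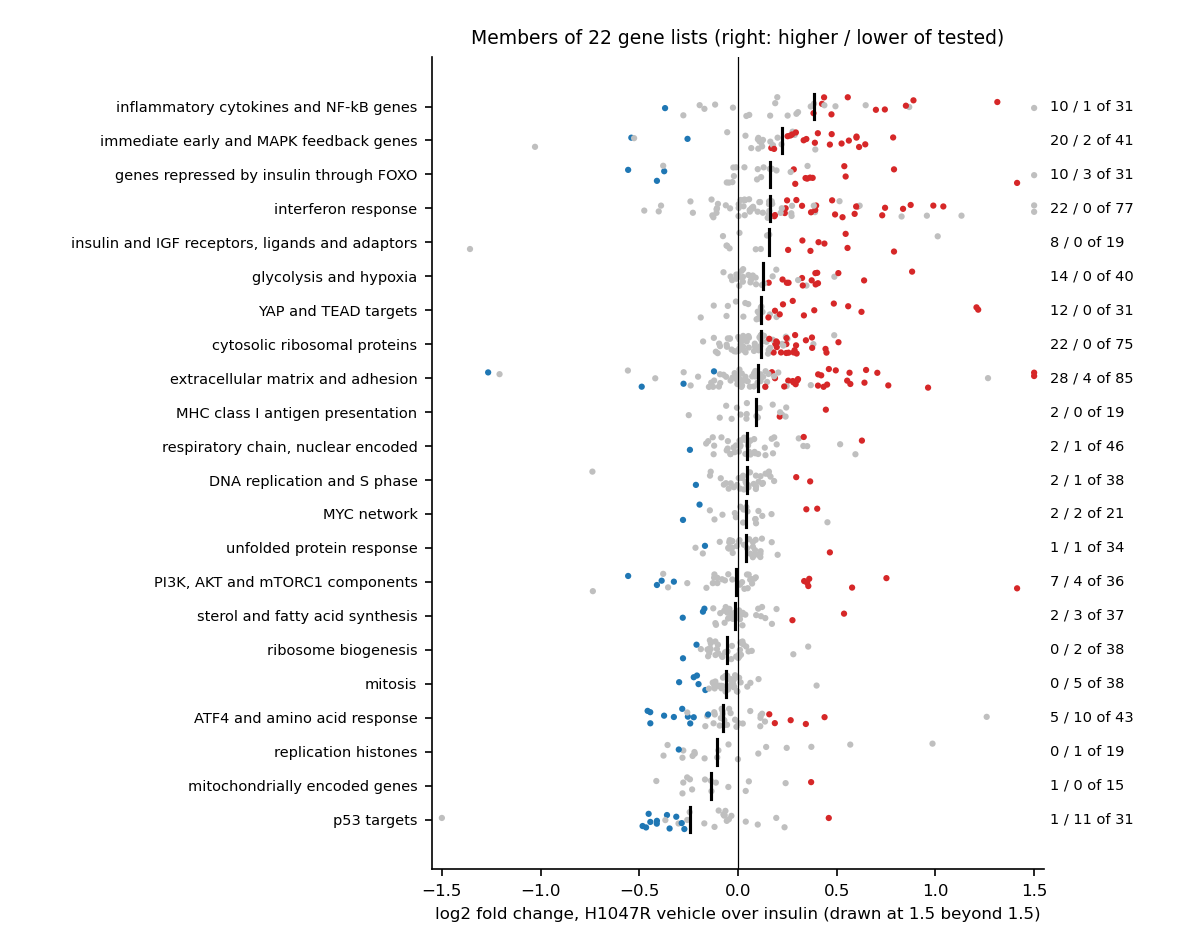
Log2 fold change of H1047R vehicle over empty-vector insulin for the tested members of 22 gene lists, with values beyond 1.5 drawn at 1.5. Red points are members higher with H1047R, blue points members lower, grey points did not pass, and black bars are list medians, which run from -0.24 for p53 targets to 0.38 for inflammatory genes.

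The interferon response differed from these lists in which side lay away from control. Of 77 tested members, 22 were higher with H1047R than with insulin and none was lower (median 0.16). Against control, H1047R raised 26 of the 77 and lowered none (median 0.23), while insulin raised 8 and lowered 2 (median -0.0003). All 3 H1047R libraries had the higher forward-strand share, and with that share as a term 4 genes in all passed for H1047R against control. OASL, a member of the 2′-5′ oligoadenylate synthetase family, stood at 31.7, 46.6 and 41.7 CPM with H1047R, 20.4, 19.4 and 18.7 CPM with insulin and 22.1, 24.6 and 21 CPM in control cells. The H1047R libraries were the high ones and did not overlap with either group (2.06-fold over insulin, log2 1.04 ± 0.13 SE, adjusted p = 2.64e-06). ISG15, a ubiquitin-like modifier, stood at 36.2, 38 and 33.9 CPM with H1047R, 21.5, 12.8 and 20.6 CPM with insulin and 14.1, 25.8 and 16.6 CPM in control cells (log2 0.99 ± 0.15 SE, adjusted p = 6.56e-05). IFI6, a mitochondrial antiviral protein, stood at 81.7, 70.3 and 71.7 CPM with H1047R and 45.5, 37.8 and 41.9 CPM with insulin (log2 0.84 ± 0.15 SE, adjusted p = 3.60e-04). Control cells held 32.5, 63 and 31.9 CPM, with control replicate 2 the high one, as it was for ISG15. The ligase HERC5, which attaches ISG15 to its targets, showed a log2 difference of 0.59 ± 0.082 (SE, adjusted p = 1.22e-05), and the helicase DDX60 one of 0.53 ± 0.080 (SE, adjusted p = 4.31e-05).

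By role, 16 of 53 interferon effectors, 3 of 9 sensors and 3 of 13 signalling genes were called. The sensors were RIGI, the receptor for viral RNA (0.49), DDX60 and DDX60L (0.25), and the signalling genes were STAT2 (0.24), IRF1 (0.24) and JAK1 (0.18). None of the 3 signalling genes passed for H1047R against control in edgeR, and JAK1 fell with insulin (log2 -0.19 ± 0.040 SE, adjusted p = 0.0035). MX1 (0.61), MX2 (0.74), OAS2 (0.87), IFITM1 (0.73), IFI44 (0.48), IFIT2 (0.30) and IFIT3 (0.40) were further effectors. Several members rose with both stimuli against control and did not differ between them past the threshold. IFIT1 gave 0.39 ± 0.076 (SE, adjusted p = 0.0069) with H1047R and 0.28 ± 0.077 (SE, adjusted p = 0.027) with insulin, and SAMD9L 0.43 ± 0.088 (SE, adjusted p = 0.0089) and 0.43 ± 0.089 (SE, adjusted p = 0.0021). Their direct differences were 0.11 ± 0.076 and 0.0026 ± 0.087 (SE). Without insulin replicate 3, 16 members were higher and 1, TRIM22 (log2 -0.33), was lower. With insulin replicate 3 alone 19 were higher, and with the forward-strand share as a term 12. The 2 interferon ligands tested, IFNE and IFNL1, did not pass, and the chemokine CXCL10 had at most 0.0859 CPM in any of the 6 libraries. Among 19 genes of MHC class I presentation, HLA-B (0.44), whose reads can be shared with other class I genes, and B2M (0.21) were higher and none was lower in edgeR (median 0.093). DESeq2 called 1 member lower, 2 were lower without insulin replicate 3, HLA-B did not pass without insulin replicate 2 (adjusted p = 0.18), and none passed in edgeR with insulin replicate 3 alone or with the forward-strand term.

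The interferon-stimulated response element, written GAAANNGAA and searched on both strands, was found in the promoter window of 12 of 18 called interferon members that had a RefSeq promoter (66.7%). It was found in 36 of 58 (62.1%) of all tested members of the list, whether called or not, and in 6.54% of the promoters of all tested genes. The stretches before the start of the 4 called members with the smallest p that hold it are shown from GRCh38.p14, 5′ to 3′, with the matches in capitals. HERC5 is given on the plus strand and holds the element in its reverse orientation.
HERC5 (chr4:88456980-88457069, plus strand): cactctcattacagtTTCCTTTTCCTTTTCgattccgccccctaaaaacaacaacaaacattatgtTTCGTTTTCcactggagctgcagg
DDX60 (chr4:168318782-168318855, minus strand): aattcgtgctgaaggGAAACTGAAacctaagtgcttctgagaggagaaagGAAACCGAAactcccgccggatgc
ISG15 (chr1:1013369-1013419, plus strand): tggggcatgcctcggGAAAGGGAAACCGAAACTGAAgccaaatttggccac
IFI6 (chr1:27672262-27672363, minus strand): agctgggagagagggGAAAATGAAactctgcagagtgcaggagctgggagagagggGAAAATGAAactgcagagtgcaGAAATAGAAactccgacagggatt

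**Figure D4:**
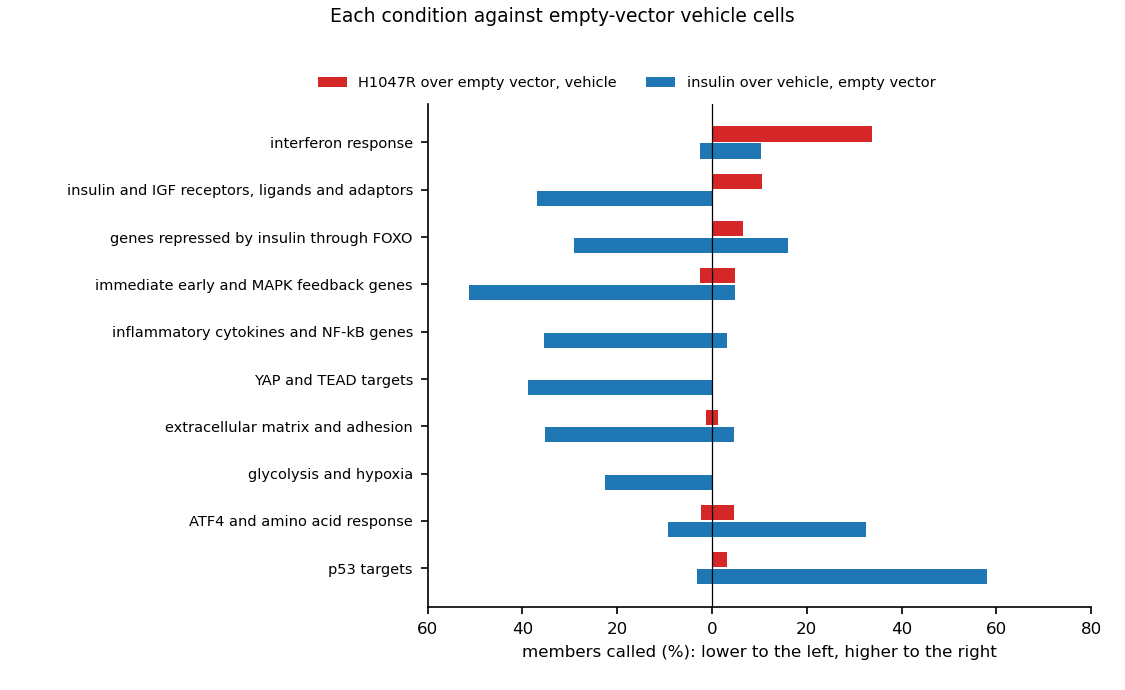
Share of the tested members of 10 lists (percent) that were lower (left of 0) or higher (right of 0) than in empty-vector vehicle cells, for H1047R (red) and for insulin (blue). The interferon list has the longest red bar, 26 of 77 members, and in the other lists the blue bars are longer, to the right for ATF4 genes and p53 targets and to the left for the rest.

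The lists of p53 targets and of the ATF4 response held the most genes lower with H1047R than with insulin. Of 31 p53 targets, 11 were lower and 1, the kinase PLK2 (0.46), was higher, with a median of -0.24. Against control, insulin raised 18 of the 31 and lowered 1, while H1047R raised 1 and lowered 0. MDM2, a ubiquitin ligase, stood at 345, 365 and 343 CPM with H1047R, 472, 515 and 486 CPM with insulin and 332, 302 and 289 CPM in control cells. The insulin libraries were the high ones (1.40-fold over H1047R, log2 -0.48 ± 0.050 SE, adjusted p = 6.58e-08), and H1047R was also above control (log2 0.19 ± 0.050 SE, adjusted p = 0.047). CDKN1A, the cyclin-dependent kinase inhibitor p21, stood at 434, 480.3 and 424 CPM with H1047R and 687, 562 and 599 CPM with insulin (log2 -0.47 ± 0.057 SE, adjusted p = 1.19e-06), while control cells held 422, 452 and 419 CPM. BTG2 (-0.45), SESN1, the death receptor FAS (-0.36), TP53I3 (-0.41), TP53INP1 (-0.31), RRM2B (-0.29), ZMAT3 (-0.27), CYFIP2 (-0.35) and GDF15 (-0.44) were the other 9. When insulin replicate 3 was left out, 12 were lower and 1 was higher, and with it as the sole insulin library 7 and 1.

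Of 43 genes of the ATF4 and amino acid response, 10 were lower and 5 higher (median -0.077). Against control, insulin raised 14 of the 43 and lowered 4, while H1047R raised 2 and lowered 1. PSAT1, an enzyme of serine synthesis, stood at 119, 118 and 119.6 CPM with H1047R, 157, 157 and 172 CPM with insulin and 109.6, 113 and 119 CPM in control cells (log2 -0.44 ± 0.049 SE, adjusted p = 2.33e-07). The tRNA synthetases GARS1 (-0.15), NARS1 (-0.22), SARS1 (-0.25) and WARS1 (-0.24) were lower, as was the amino acid transporter SLC7A5 (-0.28). Higher members were STC2 (0.44), CEBPB (0.34) and the transporters SLC38A1 (0.16), SLC38A2 (0.27) and SLC7A1 (0.19). SLC3A2, the heavy chain that pairs with SLC7A5, was above control with both stimuli (log2 0.46 ± 0.053 SE, adjusted p = 1.38e-05 with H1047R and 0.34 ± 0.053 SE, adjusted p = 6.79e-05 with insulin). With insulin replicate 3 as the sole insulin library, 2 of the list were lower and 4 higher. In the unfolded protein response, 1 of 34 genes was higher, the factor ATF3, and 1 was lower, the chaperone HYOU1 (-0.17), with a median of 0.038. ATF3 stood at 14.9, 16.1 and 14.8 CPM with H1047R, 10.9, 11 and 11.4 CPM with insulin and 10.2, 10.5 and 10.4 CPM in control cells. The H1047R libraries were the high ones (log2 0.47 ± 0.093 SE, adjusted p = 0.0016). With the forward-strand share as a term ATF3 did not pass in edgeR (adjusted p = 0.058), nor did any other member of this list. Without insulin replicate 3, 1 higher and 4 lower genes of the unfolded protein response passed, and without insulin replicate 2 HYOU1 did not.

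Growth-related lists gave fewer calls. Cyclin D1 (CCND1) stood at 167, 168 and 169 CPM with H1047R and 137, 133 and 122 CPM with insulin (log2 0.37 ± 0.051 SE, adjusted p = 1.27e-05). With the replication factor CDT1 (0.29) it made up the 2 higher of 38 replication genes, GINS1 (-0.21) being the lower one. CDT1 did not pass without insulin replicate 2 (adjusted p = 0.090), nor GINS1 without insulin replicate 3 (adjusted p = 0.099). Neither passed in edgeR with the forward-strand share as a term (adjusted p = 0.25 and 0.053). In mitosis 5 of 38 were lower, namely PLK1 (-0.20), PTTG1 (-0.22), CENPE (-0.30), CDCA8 (-0.17) and DLGAP5 (-0.21). The count was 1 without insulin replicate 2, where PLK1 was the one that passed, and with insulin replicate 3 as the sole insulin library none passed in edgeR. The MYC network gave 2 higher (MYC, 0.35, and MXI1, 0.40) and 2 lower genes (NCL, -0.28, and ODC1, -0.19) of 21. Ribosome biogenesis gave 2 lower genes of 38, NCL and WDR43 (-0.21). NCL stood at 815, 833 and 792 CPM with H1047R and 943, 923 and 946 CPM in control cells. With insulin it stood at 933, 1196 and 831 CPM, so the H1047R and insulin groups overlapped and insulin replicate 2 was the high library. Neither gene passed without it (adjusted p = 0.096 and 0.25). In sterol and fatty acid synthesis 2 of 37 were higher, among them CYP51A1 (0.54), and ACACA (-0.18), SCD (-0.17) and ME1 (-0.28) were lower. CYP51A1 had a mean of 15.1 CPM with H1047R, 10.4 CPM with insulin and 10.3 CPM in control cells. The SCD groups overlapped. With the forward-strand share as a term 1 of the list was higher and 0 were lower in edgeR, and CYP51A1 did not pass (adjusted p = 0.077). Of 19 replication histones, which are near-identical copies in part, H2BC12 (-0.30) was lower.

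Cytosolic ribosomal proteins were an exception by count, with 22 of 75 higher and none lower (median 0.11). Against control 8 were higher with H1047R and none passed with insulin in edgeR. Reads of these genes can be shared with their many pseudogenes. RPS28, a small-subunit protein, stood at 163, 176 and 161 CPM with H1047R and 124, 81.7 and 147 CPM with insulin, where insulin replicate 2 was the low library. Its control libraries held 111, 128 and 128 CPM. Without insulin replicate 2, 8 of the 75 were higher, without insulin replicate 3 there were 30 higher and 4 lower, and with insulin replicate 3 as the sole insulin library, or with the forward-strand share as a term, none passed in edgeR. The nuclear-encoded respiratory chain gave 2 higher genes, COX8A (0.63) and ATP5F1D (0.33), and 1 lower, UQCRB (-0.24), of 46. There were 9 higher and 1 lower without insulin replicate 3, and none passed in edgeR without insulin replicate 2, with insulin replicate 3 alone or with the forward-strand term. Among 15 mitochondrially encoded genes MT-ATP8 (0.37) was higher and none was lower in edgeR, whereas 1 was higher and 8 were lower without insulin replicate 3. H1047R against control gave 1 higher and 7 lower of the 15. Their median in the direct comparison was -0.14, -0.27 without insulin replicate 3, -0.029 without insulin replicate 2 and 0.19 with insulin replicate 3 alone.

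Among cell type markers, the share called was 29.4% of the stromal and 10.5% of the tested epithelial list. The epithelial share was near the 9.04% over genes with a mean of at least 1 CPM. Of 17 stromal markers, VIM (0.35), NT5E, MME (0.37) and PDGFRA (0.50) were higher with H1047R and ACTA2 (-0.37) was lower. Of 19 tested epithelial markers, CLDN1 (0.55) and KRT18 (0.25) were higher. With the forward-strand share as a term KRT18 did not pass in edgeR (adjusted p = 0.36). No endothelial or immune marker passed. VIM, MME and CLDN1 lay lower with insulin than in control cells (log2 -0.31, -0.43 and -0.64), like the matrix genes above, and their part in those differences was not tested.

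**Figure D5:**
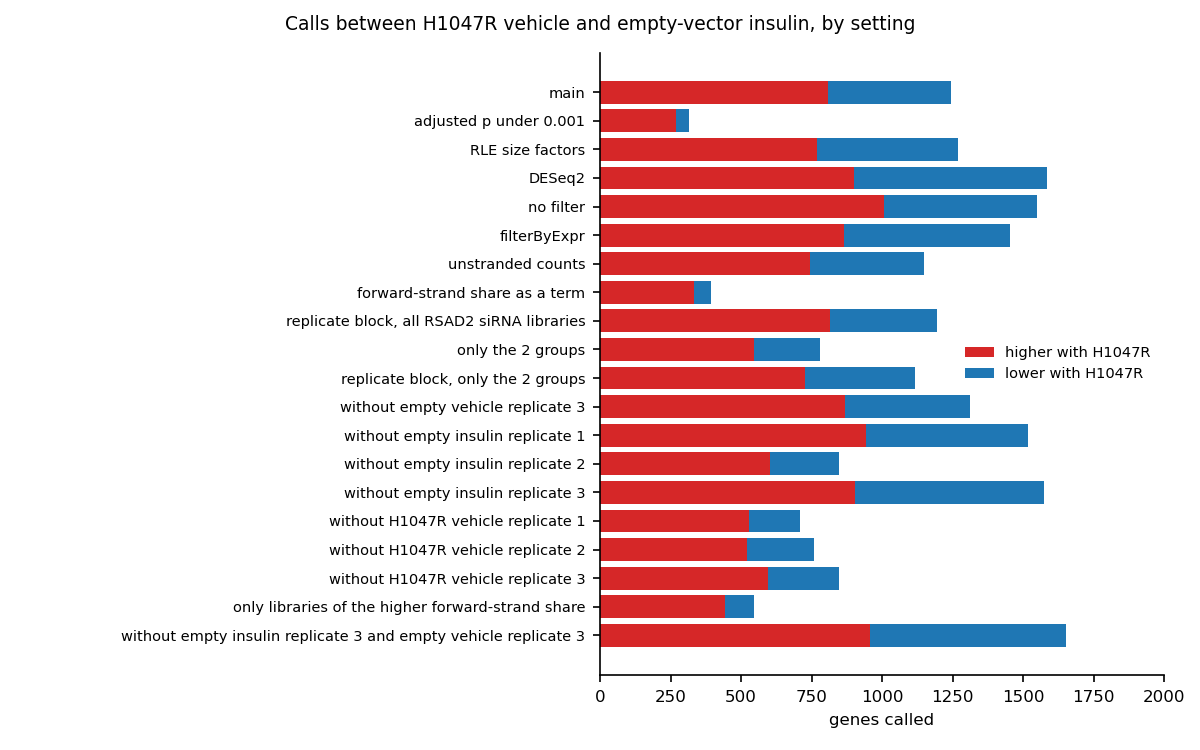
Number of genes called higher (red) and lower (blue) with H1047R than with insulin in the main fit and under 19 other settings. The total is 1245 in the main fit, 1575 without insulin replicate 3 and 546 when only the libraries of the higher forward-strand share enter, and the share of blue is smallest in the settings that remove or model the difference in that share and at an adjusted p under 0.001.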

How the data were processed

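RNA-seq was analysed from 15 libraries of 12Z cells in 5 groups of 3, taken from the labels. The authors deposited raw gene counts from STAR alignments to hg38, with unstranded, forward and reverse columns and no normalisation. Reads had been trimmed (Trim Galore, cutadapt) and inspected in FastQC. Versions are not given in the sources used here. Reverse counts were used, with 4 summary entries per library kept apart. Of 60617 identifiers, 60357 matched GENCODE release 44, which gave symbols and hg38 coordinates. Promoters are RefSeq windows, and 13364 tested genes had one.

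The 5 group means were estimated jointly over the 15 libraries by the quasi-likelihood method of edgeR 4.0.16 under R 4.3.3, after TMM scaling. Genes averaging 1 count or more were kept, which left 23184, and p-values were adjusted over them by Benjamini-Hochberg (threshold 0.05, 10 residual degrees of freedom). Values are log2 fold changes with SE, or CPM on TMM-scaled library sizes. Counts per library limit precision. Where libraries are technical repeats, p-values cover only their spread.

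The groups and the 26 gene lists were chosen with earlier results of these data known, so no list carries a test of its own, and counts and medians are given with the share called and the median over all genes. Genes named were PIK3CA, RSAD2, the 12 largest rises and falls (protein-coding, past the threshold, mean of at least 1 CPM, groups not overlapping) and the 3 members with the smallest p of each list. Others were named for a role, a small count or after their values were seen, and some list members are not reported here. Alternatives were DESeq2 1.42.0, its size factors, other filters, unstranded counts, a forward-strand term, a replicate block, fits of 2 groups and omitted libraries.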

Additional observations from a re-analysis of the deposited data

How the results depend on the processing

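Of 81 named genes, 79 kept their direction and side of the threshold with DESeq2, 81 with RLE size factors, 77 without insulin replicate 3 and 62 without insulin replicate 2, but 47 with the forward-strand share as a term and 47 when only libraries of the higher forward-strand share entered. No named gene reversed under any setting, but every setting reuses libraries by which most of these genes were chosen, so this is no independent check. The direct count of 1245 genes moved to 315 at an adjusted p under 0.001, 392 with the forward-strand term, 780 in a fit of only the 2 groups and 546 with only libraries of the higher forward-strand share. Leaving out 1 library gave 708 (without H1047R replicate 1) to 1575 (without insulin replicate 3), with 760 without H1047R replicate 2, and leaving out insulin and control replicates 3 together, a setting chosen after seeing the data, gave 1652. DESeq2 called 1584, 900 higher and 684 lower. For H1047R against control, 316 genes became 11 at 0.001, 707 with no filter, 4 with the forward-strand term, 546 in a fit of 2 groups, and 64 (without H1047R replicate 1) to 305 without 1 library, including 122 and 116 without H1047R replicates 2 and 3 and 169 without control replicate 3. For insulin against control, 1457 genes became 353 at 0.001, 520 in a fit of 2 groups, 785 without insulin and control replicates 3, and 947 (without control replicate 3) to 1844 without 1 library. PIK3CA stayed between 1.37 and 1.54 in log2 in every setting run.

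Replicate numbers did not pair the 6 libraries: the correlations of deviations between same-numbered libraries were 0.00036, -0.059 and -0.010. A replicate block over all siRSAD2 libraries gave 1195 calls and a block in the fit of 2 groups 1116. For H1047R against control, the block in the fit of 2 groups gave 1021 calls.

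The depth of 16.1 M counts in the shallowest library limits genes under 1 CPM, where no difference was detectable for most. Insulin replicate 3 is both the shallowest library and the one whose forward-strand share matches the H1047R libraries, so leaving it out, or using it alone, changes depth and that share together.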

Other observations

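One further RNA was chosen after its values were seen. BCYRN1 (hg38 chromosome 2), a non-coding RNA related to Alu repeats whose reads can be shared with other copies, stood at 28.8, 27.8 and 28.7 CPM with H1047R and at 70.8, 129.9 and 50.5 CPM with insulin. Control libraries held 45.9, 51.6 and 47.6 CPM, and the 3 libraries with H1047R and insulin together 44.3 to 48.8 CPM. The insulin group spread widely, with replicate 2 the highest of all, and the log2 fold change was -1.57 ± 0.17 (SE, adjusted p = 1.70e-07).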
